A study of Mus musculus with 5 samples.

Results

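Toll-like receptors are membrane proteins that bind molecules of microbes and start inflammatory gene expression. Here 9 mouse Toll-like receptor genes and Cd14, the gene of a co-receptor, were followed in peritoneal macrophages with and without the neuropilin gene Nrp1. The 10 genes were chosen by symbol (Tlr1, Tlr2, Tlr3, Tlr4, Tlr6, Tlr7, Tlr8, Tlr9, Tlr13 and Cd14) and all 10 were found, each in 1 row, among 38463 gene symbols. The knockout mice were labelled LysMCre-Nrp1fl/fl with the genotype Nrp1-/- and gave 2 libraries. In this model Cre is driven by the lysozyme M promoter, which is active in macrophages and other myeloid cells, so that floxed Nrp1 is removed in those cells and not in the whole animal. The wild-type mice were labelled Wildtype of strain C7/BL6 and gave 3 libraries. No label says that the wild-type mice carried Cre or a floxed allele, so Cre, strain background and the loss of Nrp1 cannot be told apart. All cells were kept in F12 DMEM with 10% FBS, no stimulus is named, and the age and number of animals are not given. If the libraries of a group did not come from separate animals, the tests below measure technical spread alone.

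Each receptor senses a class of ligand through leucine-rich repeats and signals through a TIR domain inside the cell. TLR2 pairs with TLR1 or TLR6 at the cell surface to bind bacterial lipopeptides, and TLR4 binds lipopolysaccharide together with MD-2, to which CD14 hands the ligand. TLR3, TLR7, TLR8, TLR9 and TLR13 sit in endosomes and sense nucleic acids. Resident macrophages use these receptors to detect microbes in the body cavity.

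The targeted gene separated the groups without overlap. Nrp1 had 7.63 and 7.70 FPKM in the knockout libraries and 24.3, 19.0 and 11.5 FPKM in wild-type replicates 1, 2 and 3. The log2 fold change was -1.09 ± 0.32 (SE) and did not pass the test described below (limma adjusted p = 0.927). Lyz2, whose promoter drives Cre, had 53.0 and 64.3 FPKM in knockout libraries and was listed at 0 in the wild-type libraries. Lyz2 passed the test, with a log2 fold change of 5.89 ± 0.22 (SE, limma adjusted p = 0.00042), and was 1 of the 7 genes called. With 0 in the wild-type libraries, the size of that value depends on the pseudocount. Why Lyz2 was listed at 0 there was not tested, while the macrophage marker Cd68 had 1299, 1161 and 1964 FPKM in wild-type replicates 1, 2 and 3. The Lyz2 difference is therefore not read as an induction. FPKM scale sequenced fragments by transcript length and by the mapped total, and the read depth behind them is unknown. All 9 macrophage markers examined reached 1 FPKM. B cell markers summed to 2.57 to 2.73 FPKM in knockout and 1.98 to 4.79 FPKM in wild-type libraries, with 3 of 8 reaching 1 FPKM. Dendritic cell markers summed to 3.18 to 3.50 FPKM in knockout and 2.75 to 3.81 FPKM in wild-type libraries (2 of 7 reaching 1 FPKM). T and NK cell markers summed to 0.435 to 0.554 FPKM in knockout and 0.198 to 0.518 FPKM in wild-type libraries (0 of 7, Ncr1 listed at 0 throughout). Neutrophil markers summed to 71.5 to 98.2 FPKM in knockout and 35.5 to 99.6 FPKM in wild-type libraries, carried by S100a8 and Mmp8, while Ly6g and Retnlg were listed at 0 in every library. Mesothelial and fibroblast markers summed to 10.4 to 14.5 FPKM in knockout and 10.5 to 27.0 FPKM in wild-type libraries (4 of 8 reaching 1 FPKM). Mast cell markers summed to 18.2 to 34.0 FPKM in knockout and 16.3 to 176 FPKM in wild-type libraries (5 of 6 reaching 1 FPKM), with the 176 in wild-type replicate 3. The part of these cells in the receptor values was not tested. In bulk RNA, fewer cells of a type and less RNA per cell cannot be told apart.

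Tlr1 and Tlr6 are neighbours on the minus strand of chromosome 5, and their transcripts are alike enough to share reads. In GRCm38 (GENCODE vM21) Tlr1 lies at chr5:64924679-64933563 and Tlr6 at chr5:64952031-64960097, with 18467 bases between them. Each carries its whole coding sequence in 1 exon. Of the 50-base stretches in their longest coding transcripts, 15.3% of those of Tlr1 and 12.5% of those of Tlr6 occur in the other gene, and no other combination of the 10 genes shared any. The longest identical run is 229 bases, in the coding part of both genes, at chr5:64925537-64925765 for Tlr1 and chr5:64953828-64954056 for Tlr6. It is printed because a read from within it cannot be assigned to 1 of the 2 genes.
Shared Tlr1 and Tlr6 run, minus strand: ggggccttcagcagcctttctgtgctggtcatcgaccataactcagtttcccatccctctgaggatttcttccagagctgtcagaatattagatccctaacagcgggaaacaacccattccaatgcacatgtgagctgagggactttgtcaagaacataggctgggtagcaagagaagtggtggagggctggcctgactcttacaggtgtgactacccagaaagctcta
The separate values of Tlr1 and Tlr6 are therefore uncertain to the extent that Cufflinks divided such reads. The other genes lie apart from each other, apart from Tlr8 (chrX:167242696-167264329) and Tlr7 (chrX:167304929-167330558), whose gap is 40599 bases. Tlr13 is on chromosome X as well, Tlr2 on 3, Tlr4 on 4, Tlr3 on 8, Tlr9 on 9 and Cd14 on 18. An exon of Tlr3 overlaps the gene model Gm45542 on the other strand, and whether reads were counted by strand is not given in the sources used here.

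Levels spread over more than 3 orders of magnitude, with Cd14 at the top and Tlr9 at the bottom of the 10 genes. Cd14 had 896 and 1011 FPKM in the knockout libraries and 799.6, 1442 and 2029 FPKM in wild-type replicates 1, 2 and 3. It ranked 44 by mean level among the 12214 genes that reached 1 FPKM in at least 2 libraries. The knockout values lay inside the wild-type range. Among the receptors Tlr2 came first, with 217 and 198 FPKM in knockout and 155, 247 and 190.0 FPKM in wild-type libraries (rank 389). Tlr13, which in mice senses bacterial ribosomal RNA, came second with 107 and 96.3 FPKM in knockout and 107, 92.4 and 76.5 FPKM in wild-type libraries (rank 784). Both receptors had overlapping groups, and both were above every other receptor in all 5 libraries.

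**Figure D1:**
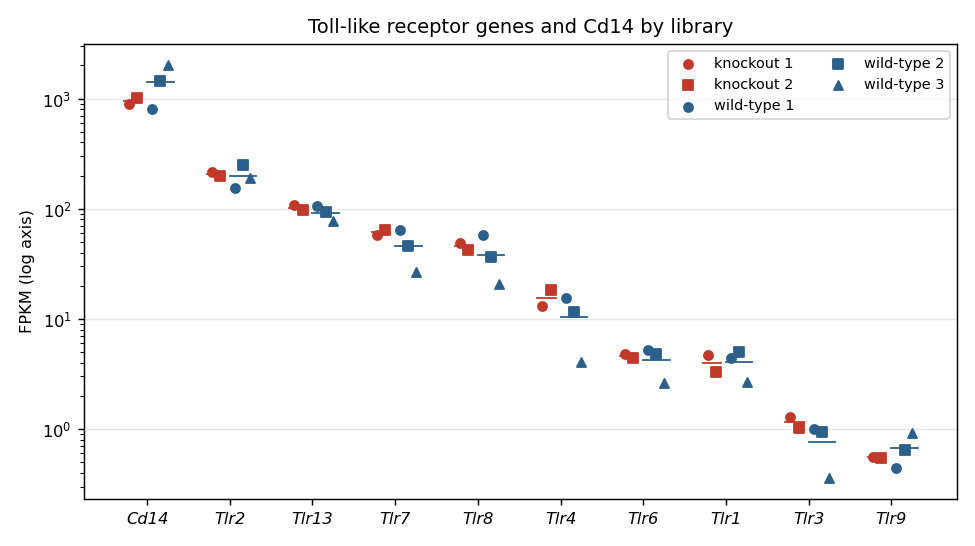
FPKM (log axis) of the 10 genes in each library, ordered by mean level, with knockout left of wild-type and a line at each group's mean. Cd14 stands near 1000 FPKM, Tlr3 and Tlr9 near 1 FPKM or below, and wild-type replicate 3 (triangle) is the lowest library for 7 of the 10 genes.

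The single-stranded RNA sensors followed. Tlr7 had 58.0 and 64.7 FPKM in knockout and 64.4, 46.2 and 26.6 FPKM in wild-type libraries. Tlr8, whose loss in mice is known to enhance TLR7 responses, had 49.1 and 41.9 FPKM in knockout and 58.0, 36.2 and 20.7 FPKM in wild-type libraries. The ranges of these neighbours on chromosome X overlapped, yet Tlr7 was above Tlr8 in 5 of 5 libraries, by 1.11 to 1.54 times. Tlr4, the lipopolysaccharide receptor, had 13.0 and 18.2 FPKM in knockout and 15.6, 11.6 and 4.09 FPKM in wild-type libraries. Tlr4 had the widest range of the 10 genes, 4.44-fold between its highest and lowest library.

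Tlr6 and Tlr1, the partners of TLR2, stood at 2.64 to 5.21 FPKM and 2.68 to 5.02 FPKM over the 5 libraries and could not be ordered: Tlr6 was the higher in 3 of 5. Tlr6 had 4.75 and 4.39 FPKM in knockout and 5.21, 4.79 and 2.64 FPKM in wild-type libraries. Tlr1 had 4.67 and 3.27 FPKM in knockout and 4.39, 5.02 and 2.68 FPKM in wild-type libraries. Tlr2 exceeded the sum of Tlr1 and Tlr6 by 23.0 and 25.9 times in knockout and by 16.2, 25.2 and 35.8 times in wild-type libraries.

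Tlr3, the double-stranded RNA sensor that signals through the adaptor TICAM1, had 1.28 and 1.03 FPKM in knockout and 1.01, 0.942 and 0.357 FPKM in wild-type libraries. Tlr9, the sensor of unmethylated CpG DNA, had 0.558 and 0.544 FPKM in knockout and 0.441, 0.643 and 0.920 FPKM in wild-type libraries. Tlr9 reached 1 FPKM in no library and was the 1 member left out of the test across genes. Its highest value was in wild-type replicate 3, the library with the highest B cell marker sum (4.79 FPKM). Their relation was not tested. Neighbours in the order Cd14, Tlr2, Tlr13, Tlr7, Tlr8, Tlr4, Tlr6, Tlr1, Tlr3, Tlr9 had separate ranges over the 5 libraries except Tlr7 and Tlr8, Tlr4 and Tlr6, Tlr6 and Tlr1, and Tlr3 and Tlr9. Of the other mouse receptors, Tlr5 (flagellin) was at 0.0633 FPKM or less, and Tlr11 and Tlr12 (profilin) were at 0.0194 FPKM or less in every library.

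The receptor transcripts were thus dominated by few genes. The FPKM of the 9 receptors summed to 455 and 429 in knockout and to 411, 445 and 325 in wild-type libraries. Tlr2 made up 47.6% and 46.3% of that sum in knockout and 37.8%, 55.6% and 58.6% in wild-type libraries. Tlr13 made up 23.5% and 22.5% in knockout and 26.0%, 20.8% and 23.6% in wild-type libraries. The 5 endosomal receptors together held 47.5% and 47.7% of the sum in knockout and 56.1%, 39.6% and 38.5% in wild-type libraries. The knockout shares of Tlr2 and of the endosomal receptors lay between those of wild-type replicates 1 and 2. The share of Tlr13 did so as well.

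**Figure D2:**
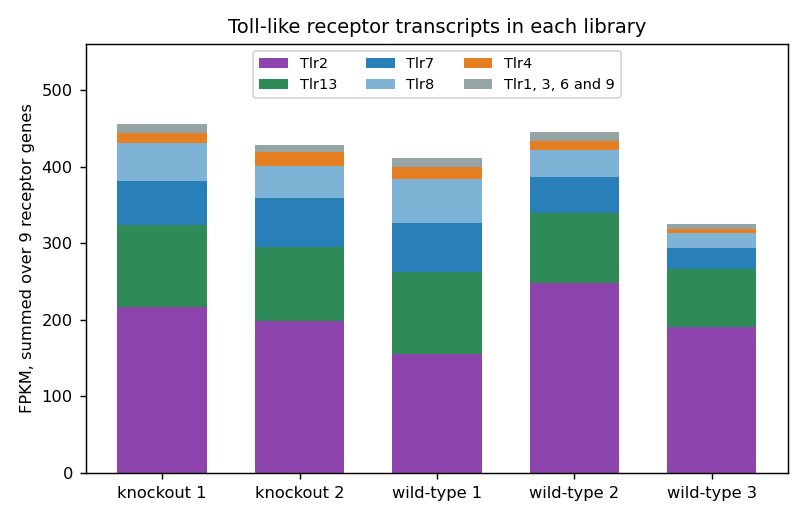
FPKM of the 9 Toll-like receptor genes stacked for each library, knockout left of wild-type. Tlr2, Tlr13, Tlr7 and Tlr8 fill most of each bar, and the bar of wild-type replicate 3 is the shortest at 325 FPKM.

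No member differed between knockout and wild-type by the test across genes. The test was limma on log2(FPKM + 1), which understates the change of low genes, with Benjamini-Hochberg adjustment over the 12214 genes at 0.05. It called 0 of the 9 tested members, and 0 had an unadjusted p under 0.05. Over all genes it called 7 (0.0573%), of which 5 were higher (0.0409%) and 2 lower (0.0164%) in knockout, and 1.82% had an unadjusted p under 0.05. The members' log2 fold changes ran from -0.48 for Cd14 to 0.68 for Tlr4, 7 of 9 were positive, and their median was 0.16. The median of all tested genes was 0.11, so the members stood 0.05 above it. The groups did not overlap for 1 of the 9 members, Tlr3, which was higher in knockout, against 20.8% of all tested genes in either direction and 13.9% on the higher side.

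On the log2(FPKM + 1) scale and over all 5 libraries, the differences with the highest absolute values were those of Tlr4, Tlr7 and Cd14. Tlr4 averaged 15.6 ± 3.68 FPKM in knockout (SD, n = 2) and 10.4 ± 5.84 FPKM in wild-type libraries (SD, n = 3). Its log2 fold change was 0.68 ± 0.49 (SE), with a 95% interval from -0.49 to 1.85 and a limma adjusted p of 0.927. Without wild-type replicate 3 it was 0.18. Tlr7 averaged 61.4 ± 4.70 FPKM in knockout and 45.7 ± 18.9 FPKM in wild-type libraries, a log2 fold change of 0.50 ± 0.36 (SE) with an interval from -0.36 to 1.36 (limma adjusted p = 0.927). Without wild-type replicate 3 it was 0.16. Cd14 averaged 954 ± 81.2 FPKM in knockout and 1424 ± 615 FPKM in wild-type libraries, a log2 fold change of -0.48 ± 0.42 (SE) with an interval from -1.48 to 0.52 (limma adjusted p = 0.927). Without wild-type replicate 3 it was -0.17. In each of these 3 genes wild-type replicate 3 was the library farthest from the rest, and the difference shrank by more than 1.5 times without it. Leaving out wild-type replicate 1 moved the values the other way: the log2 fold changes were 1.03 for Tlr4, 0.79 for Tlr7 and -0.84 for Cd14. In that setting limma called 0 members (lowest adjusted p = 0.831), and Tlr7 was the 1 member with an unadjusted p under 0.05 (0.0466), as were 195 of the 12038 genes tested in the higher direction.

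The order of the members by size depended on the setting. With a pseudocount of 0.1 in place of 1, Tlr3, the lowest of the tested members in FPKM, had a log2 fold change of 0.63, beside 0.75 for Tlr4, 0.51 for Tlr7 and -0.48 for Cd14. Without wild-type replicate 3 the highest absolute value was that of Tlr1, at -0.21. With a pseudocount of 1, Tlr8 had a log2 fold change of 0.35 ± 0.40 (SE) and -0.02 without wild-type replicate 3. Tlr3 had 0.30 ± 0.26 (SE), and 0.12 without that library. Tlr13 had 0.16 ± 0.22 (SE), and 0.03 without it. Tlr6 had 0.13 ± 0.30, Tlr2 0.10 ± 0.26 and Tlr1 -0.0015 ± 0.30 (SE). The narrowest interval was that of Tlr13, from -0.38 to 0.69 on the log2 scale, which in fold terms is 0.770 to 1.61. For Tlr2 it was 0.697 to 1.64 in fold terms. Changes larger than these lie outside the intervals of Tlr13 and Tlr2, while for Tlr4 the interval reached 3.61-fold. The exact permutation test over the 10 ways to draw 2 of 5 libraries was made two-sided by doubling the smaller tail. Computed so, it cannot give a p below 0.2, and Tlr3 gave that value. Tlr9, not tested across genes, had a two-sided exact permutation p of 0.8.

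**Figure D3:**
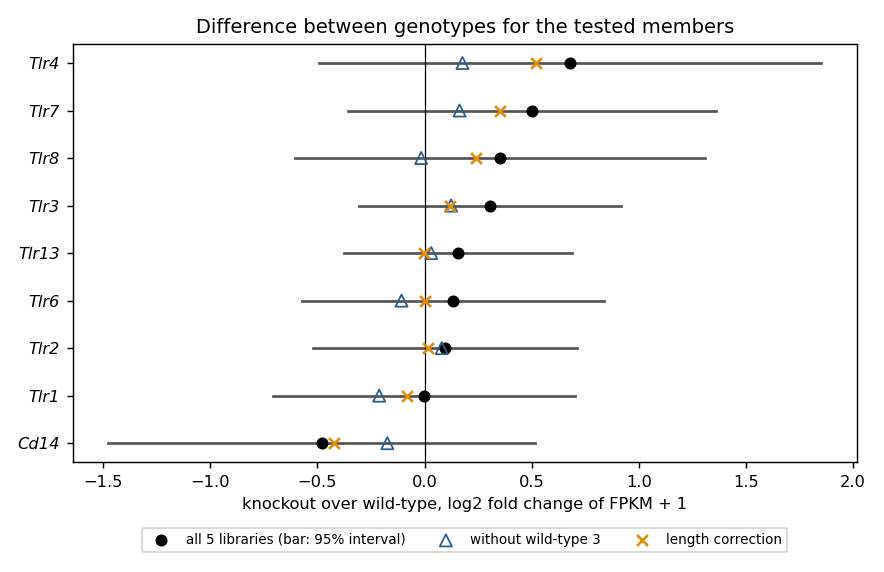
Knockout over wild-type log2 fold change of FPKM + 1 for the 9 tested members (circles, with 95% intervals), without wild-type replicate 3 (triangles) and after a correction for transcript length (crosses). Every interval spans 0, and without that replicate the values lie between -0.21 and 0.18.

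Wild-type replicate 3 stood apart from the other 4 libraries, and its distance followed transcript length. It was the lowest library for 7 of the 10 members and the highest for Tlr9 and Cd14, while Tlr2 was lowest in wild-type replicate 1. Over all tested genes it was the lowest library for 54.2% and the highest for 21.4%. Lengths are those of the longest coding transcript in GENCODE vM21, known for 82.3% of the tested genes. Genes under 1000 bases were higher in wild-type replicate 3 than in the mean of the other libraries by a median of 0.28 on the log2 scale. The median difference was -0.35 for genes of 3000 to 4000 bases, -0.57 for 4000 to 6000 bases and -0.71 for 6000 bases or more. The 9 receptor transcripts measure 3014 to 4407 bases and that of Cd14 measures 1641 bases.

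Against genes of their own length, 5 of the 10 members lay outside the quartiles and 5 inside, the same division that quartiles make of all genes, so the count says nothing particular to the members. Tlr4 was lower in wild-type replicate 3 than in the mean of the others by a log2 difference of -1.60, where the lower quartile of genes of 4000 to 6000 bases was -0.89. Tlr7 and Tlr8 differed by -1.09 and -1.10, where the lower quartile at 3000 to 4000 bases was -0.70. Cd14 differed by 1.00, where the upper quartile at 1000 to 2000 bases was 0.45. Tlr2 (-0.08), Tlr1 (-0.52), Tlr6 (-0.67), Tlr3 (-0.60) and Tlr13 (-0.39) lay within the quartiles of their length. Tlr9, at 0.31, lay above the upper quartile of 0.01. The same trend entered the comparison of genotypes: the median knockout over wild-type log2 fold change was -0.14 under 1000 bases, 0.12 at 3000 to 4000 bases and 0.35 at 6000 bases or more. Without wild-type replicate 3 those medians were -0.06, 0.0038 and 0.13. After a lowess trend on length was removed from each library, chosen after seeing the data, the log2 fold change was 0.52 for Tlr4, 0.35 for Tlr7 and -0.42 for Cd14, and 0 members were called by limma.

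**Figure D4:**
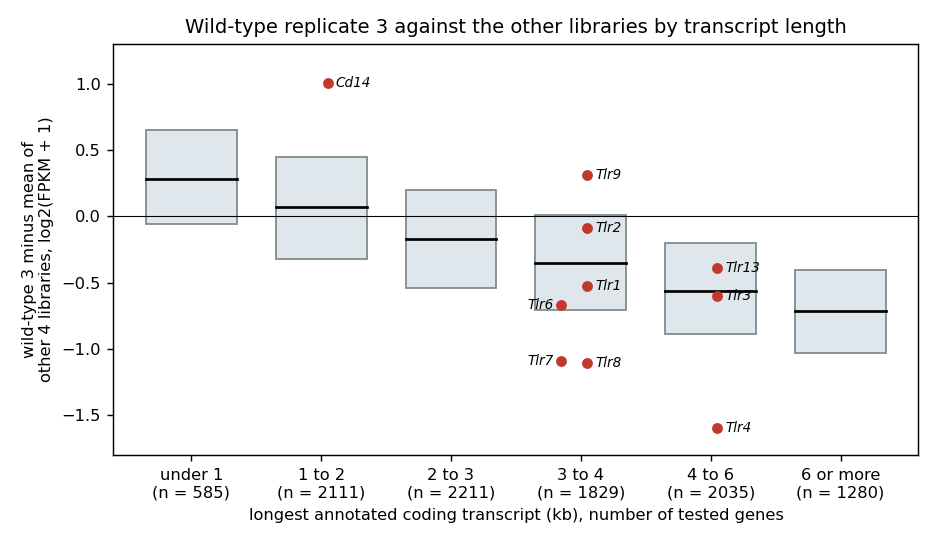
Difference of wild-type replicate 3 from the mean of the other 4 libraries in log2(FPKM + 1), by length of the longest coding transcript. Boxes span the quartiles of all tested genes with a line at the median, and points are the 10 members. Medians run from 0.28 for genes under 1000 bases to -0.71 for those of 6000 bases or more, with Cd14 at 1.00 and Tlr4 at -1.60.

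Ratios between partners varied in the same way. Cd14 exceeded Tlr4 by 69.2 and 55.7 times in knockout and by 51.3, 124 and 496 times in wild-type libraries. Ly96, which encodes MD-2, exceeded Tlr4 by 1.62 and 1.57 times in knockout and by 2.01, 2.46 and 8.64 times in wild-type libraries, so these groups did not overlap. The ratio of Cd14 to Tlr2 was 4.14 and 5.10 in knockout and 5.15, 5.83 and 10.7 in wild-type libraries, again without overlap. These were 2 of 8 ratios computed, chosen after the values were seen. Among single tested genes, 20.8% did not overlap in either direction. The transcripts of Ly96 (632 bases) and Cd14 (1641 bases) are shorter than those of Tlr4 (4077 bases) and Tlr2 (3014 bases). Whether length bears on these ratios was not tested. Both ratios gave a p of 0.2, the lowest that the two-sided exact permutation test allows here. By contrast the ratio of Tlr1 to Tlr6 stayed between 0.745 and 1.05 in the 5 libraries, within the limits that shared reads set on it.

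Accessory and chaperone genes had more negative than positive differences, and none passed. Of 12 listed, 11 were tested by limma, 0 were called in either direction and 0 had an unadjusted p under 0.05. Their median log2 fold change was -0.18, and -0.17 without wild-type replicate 3, against 0.11 and 0.02 over all genes. Groups did not overlap for 3, all lower in knockout (6.95% of all tested genes). Ly86, which encodes MD-1, the partner of the receptor homologue CD180, had 95.8 and 94.7 FPKM in knockout and 151, 137 and 386 FPKM in wild-type libraries (log2 fold change -1.06 ± 0.45 SE, limma adjusted p = 0.927, and -0.59 without wild-type replicate 3). Trem2, a lipid receptor, had 502 and 562 FPKM in knockout and 763, 593 and 785 FPKM in wild-type libraries. Ly96 had 20.9 and 28.5 FPKM in knockout and 31.3, 28.6 and 35.3 FPKM in wild-type libraries. All 3 transcripts measure under 2000 bases. Wild-type replicate 3 was higher than the others by a median log2 difference of 0.28 under 1000 bases and 0.07 at 1000 to 2000 bases. Whether length bears on these 3 genes was not tested. That their knockout values lay below wild-type replicates 1 and 2 follows from the lack of overlap and is no separate result. For Ly96 the nearest values were 28.50 FPKM in knockout replicate 2 and 28.57 FPKM in wild-type replicate 2. Unc93b1, the chaperone that carries endosomal receptors out of the endoplasmic reticulum, had 337 and 296 FPKM in knockout and 299, 322 and 228 FPKM in wild-type libraries, named here for that role.

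Adaptors and signal transducers lay near the median of all genes. Of the adaptors 5 of 7 were tested, 0 called by limma and 0 at an unadjusted p under 0.05, with a median log2 fold change of 0.03. Ticam1, the adaptor of TLR3 and of endosomal TLR4, had 12.8 and 11.9 FPKM in knockout and 13.4, 13.2 and 20.0 FPKM in wild-type libraries. Tirap, which bridges TLR2 and TLR4 to MyD88, had 7.75 and 8.85 FPKM in knockout against 6.87, 8.26 and 6.69 FPKM in wild-type, and Pik3ap1, which links these receptors to phosphoinositide 3-kinase, 79.4 and 65.8 FPKM in knockout against 68.9, 75.8 and 83.0 FPKM in wild-type. Of the 21 kinases, ubiquitin ligases and transcription factors all were tested, 0 were called by limma and 0 had an unadjusted p under 0.05, with a median of 0.10. Traf6, the ubiquitin ligase downstream of MyD88, had 6.17 and 6.42 FPKM in knockout and 4.81, 5.51 and 3.11 FPKM in wild-type libraries. Its groups did not overlap, with knockout above wild-type. Ticam1 and Irf5 did not overlap either, with knockout below wild-type. Irf5 had 120 and 119 FPKM in knockout and 132, 140 and 166 FPKM in wild-type libraries. Among all tested genes, 13.9% had knockout above wild-type without overlap, and 6.95% had it below. Traf3 had 16.3 and 13.3 FPKM in knockout against 9.78, 15.1 and 6.47 FPKM in wild-type. Irf7, which drives type I interferon genes after TLR7 and TLR9 signals, had 53.6 and 54.7 FPKM in knockout against 32.6, 20.5 and 62.1 FPKM in wild-type, with a log2 fold change of 0.63 that became 1.04 without wild-type replicate 3 (limma adjusted p = 0.945).

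Inhibitors, proteases and induced genes gave no called member either. Of 13 inhibitors 11 were tested (0 called by limma, 0 at an unadjusted p under 0.05, median 0.06). Tollip, which restrains IRAK signalling, had 28.5 and 31.1 FPKM in knockout and 22.9, 27.4 and 14.3 FPKM in wild-type libraries. Socs1, a suppressor of cytokine signalling, had 1.14 and 1.08 FPKM in knockout against 0.665, 1.02 and 0.453 FPKM in wild-type, and Trafd1 62.4 and 68.3 FPKM in knockout against 62.7, 62.2 and 46.3 FPKM in wild-type. All 5 lysosomal proteases that can cleave endosomal receptors were tested (0 called by limma, 0 at an unadjusted p under 0.05, median 0.18). Ctsl had 257 and 338 FPKM in knockout and 297, 204 and 179 FPKM in wild-type libraries, Lgmn 544 and 557 FPKM in knockout against 535, 482 and 447 FPKM in wild-type, and Ctsk 17.2 and 30.7 FPKM in knockout against 29.7, 16.2 and 14.8 FPKM in wild-type. Groups did not overlap for 2 inhibitors (Tollip and Socs1) and 1 protease (Lgmn), all higher in knockout, against 13.9% of all tested genes on that side.

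Of 18 cytokine and other genes induced by these receptors, 12 were tested, 10 had a positive log2 fold change and 0 were called by limma or had an unadjusted p under 0.05. Their median was 0.34 with all libraries and 0.04 without wild-type replicate 3. Ptgs2, the inducible cyclooxygenase, had 3.82 and 4.03 FPKM in knockout and 2.52, 2.73 and 1.15 FPKM in wild-type libraries (log2 fold change 0.69 ± 0.30 SE, limma adjusted p = 0.927, and 0.44 without wild-type replicate 3). It was the 1 gene of the 12 whose groups did not overlap, on the higher side, against 13.9% of all tested genes. The chemokine gene Ccl3 had 43.4 and 48.1 FPKM in knockout against 33.2, 51.4 and 21.9 FPKM in wild-type, and Irg1, the itaconate synthase gene, 41.2 and 40.6 FPKM in knockout against 19.5, 42.8 and 33.7 FPKM in wild-type. The interferon gene Ifnb1 was listed at 0 in every library.

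**Figure D5:**
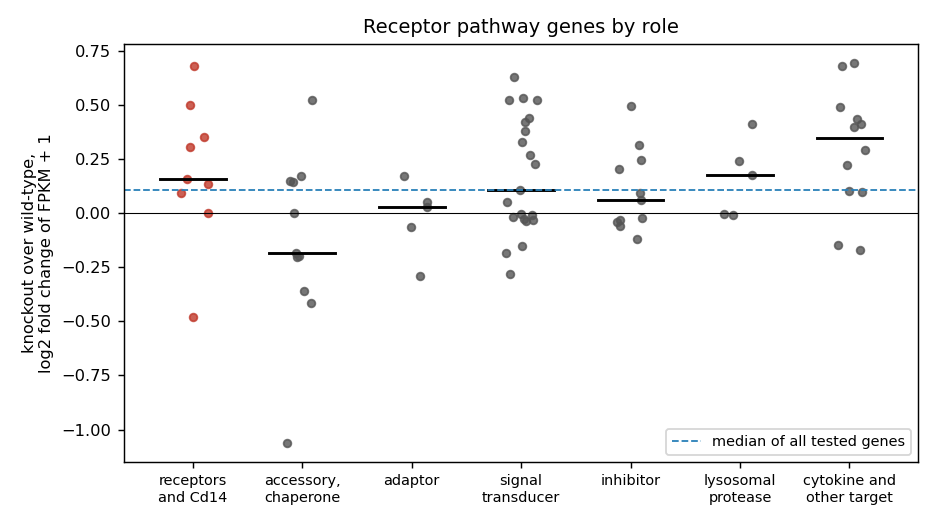
Knockout over wild-type log2 fold change of FPKM + 1 for each tested gene, grouped by role in receptor signalling, with a line at each group's median and a dashed line at the median of all tested genes. Medians run from -0.18 for accessory genes to 0.34 for induced targets, and the members' median is 0.16.

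Members also differed in how alike their profiles were. With each gene centred on its own mean log2(FPKM + 1), the closest members over the 5 libraries were Tlr3 and Tlr13 (Euclidean distance 0.24) and the farthest Tlr4 and Cd14 (2.52). The pseudocount flattens genes near 1 FPKM: over the libraries Tlr3 spanned 3.58-fold in FPKM and Tlr13 1.40-fold. The members' mean profile was 0.14 and 0.09 in knockout and 0.12, 0.10 and -0.45 in wild-type libraries. The non-member genes closest to that mean profile were Ric8b, Aggf1, Ccdc69, Ddx10 and Rcc1, at distances of 0.022 to 0.049. All 5 were lowest in wild-type replicate 3, which their selection by nearness to that profile fixed in advance. Of all tested genes, 54.2% were lowest in that library.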

How the data were processed

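RNA of cultured peritoneal macrophages was sequenced in 2 knockout and 3 wild-type libraries. Per the labels' protocols, poly(A) RNA from 1 µg of total RNA was made into Ion Torrent libraries and processed with Torrent Suite 4.4 and the Whole Transcriptome Analysis Plugin 4.2-r7. TopHat2 and then Bowtie2 aligned reads to mm10. The deposited values are FPKM per gene, which the authors computed with Cufflinks, per the labels. Values reach 6.8e-317, so they are not whole multiples of a read, depth is unknown and no counting interval is given. The other 17 deposited columns were not used. Lengths were not matched to the annotation the authors used, which is not given in the sources used here.

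Wild-type replicate 3 followed a name sort that counts hyphens, so that 2144 rows held another gene's value. Its values were put back in place, which raised Pearson's r with the other libraries from 0.171 to 0.916 in 722 expressed displaced rows. No member stood in such a row; Nfkb1, Nfkbia, Nfkbie and Nfkbiz of the pathway lists did. Rows named by a number (27) or by names differing only in case (50) were left out, and 165 repeated symbols were summed.

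Genes with at least 1 FPKM in at least 2 libraries were tested with limma 3.58.1 (R 4.3.3). The values were log2(FPKM + 1), fitted with a mean-variance trend, genotype as the single term and all 5 libraries. The fit was also run on simulated data with independent noise for each gene and library. Those data lack the length trend of wild-type replicate 3, so they cannot show how the fit behaves with it. Named genes were the members, Nrp1, Lyz2, the other mouse Toll-like receptors, the 3 tested genes of smallest unadjusted p in each pathway list and the 5 genes nearest the members' mean profile, predicted models and small RNAs left out. Ratios, Unc93b1, Ifnb1 and Irf5 were chosen after seeing values. Members and lists were chosen with earlier results of these data known. Rab7b, Tasl and Otulin were not found in the table by symbol.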

Additional observations from a re-analysis of the deposited data

How the results depend on the processing

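Over 16 alternative settings 0 members were called by limma, and the lowest adjusted p of a member was 0.691. Of 140 alternative log2 fold changes of single members, 123 kept their sign and 17 changed it. The order as deposited, the removal of displaced rows and the changed filters cannot move a member's own value. Signs kept in those settings were fixed in advance and are no sign of robustness. The members' median ranged from 0.0027 (library weights) to 0.28 (without wild-type replicate 1). The median of all tested genes, 0.11 with FPKM as deposited, was 0.17 with libraries rescaled to equal sums and -0.0053 with median-of-ratios scaling, and the members' median was then 0.24 and 0.03.

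The sign of Tlr1 changed with a pseudocount of 0.1 (0.0036) and with equal sums (0.060), that of Tlr2 with median-of-ratios scaling (-0.038) and that of Tlr6 with quantile normalization (-0.047). With library weights, which gave wild-type replicate 3 a weight of 0.128, Tlr6 (-0.11), Tlr8 (-0.14), Tlr13 (-0.0055) and Cd14 (0.0027) changed sign, and with the length correction Tlr13 (-0.0040). Leaving out 1 library at a time gave ranges from -0.21 to 0.20 for Tlr1, -0.065 to 0.27 for Tlr2, -0.11 to 0.28 for Tlr6 and -0.015 to 0.70 for Tlr8. The replicate numbers are not stated to pair libraries. With the replicate block, 4 genes were called and Tlr6 (-0.11) and Tlr8 (-0.015) changed sign. No knockout library is numbered 3, so the block gave members the same log2 fold changes as leaving out wild-type replicate 3. The sign changes of Tlr6 and Tlr8 are therefore counted in both settings. Deviations of same-numbered libraries had r of -0.0513 and -0.0084 across genes.

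Over all genes 7 were called in the fit reported. The count was 3 with the order as deposited, 1 with no filter, 2 with a filter at 5 FPKM, 21 with library weights, 1 with the length correction and 0 to 14 without 1 library. The cause was not tested. The count was 0 without knockout replicate 1 or 2 and 14 without wild-type replicate 2.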

Other observations

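Tlr7, Tlr8 and Tlr13 lie on chromosome X, and the sex of the mice is not given in the labels. The Y-linked gene Ddx3y had 7.21 and 7.89 FPKM in knockout and 7.09, 6.93 and 2.40 FPKM in wild-type libraries. Xist, expressed from the inactive X chromosome of females, had 0.0013 and 1.33 FPKM in knockout and 0, 0.0012 and 0 FPKM in wild-type libraries.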
